A study of Gallus gallus with 20 samples.

Results

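Breast muscle and liver of broiler chickens were compared for genes whose RNA differed in opposite directions between a control and a methionine-deficient diet. All 20 libraries entered the comparison. Genes were tested where the mean level was at least 1 FPKM (fragments scaled to transcript length and to the mapped fragments of a library) in both tissues, which left 9142 of 17108 genes. For each of them the liver diet effect minus the breast diet effect was tested over the 20 libraries. It passed at a limma adjusted p under 0.05 for 843 genes. Of these, 164 had a diet change of opposite sign and of at least 0.25 on the log2 scale in each tissue and are called opposed below, 1.79% of the genes tested. In 92 of the 164 the deficient level was higher in muscle and lower in liver, and in 72 it was lower in muscle and higher in liver. Another 618 of the 843 genes changed in muscle alone, with a called breast change and a liver change that was not called and smaller than 0.25. The remaining 61 met neither definition.

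The birds were Ross 708 males sampled at post-hatch day 35. The control group ate a diet with L-methionine and the deficient group a diet deficient in L-methionine from week 3 to week 5 of age. Each of the 4 groups (breast control, breast deficient, liver control and liver deficient) held 5 libraries of total RNA from pectoralis major, the breast muscle, or from liver. Per the labels 5 birds ate each diet, but which breast and liver library came from the same bird is not given, so the tissues were treated as separate samples.

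No file gives read counts, so read depth is unknown. Assigned sequence, as coverage summed over transcript bases, ranged from 1.40 to 2.75 gigabases. Tissue markers matched the labels. The 8 myocyte markers summed to between 17239 and 28312 scaled FPKM in control breast and between 30314.5 and 49800 in deficient breast. The part of these higher sums in the rises of single muscle genes was not tested. In liver the 22 hepatocyte markers summed to between 33473 and 84944. Liver control 1 stood apart, since its myocyte markers summed to 145 scaled FPKM where the remaining 9 livers had 0.301 to 0.895. Mitochondrial transcripts held 63.1% of all FPKM in liver control 4 and 36.1% in liver deficient 1. In each of these libraries a single gene without a symbol was the largest, with 54.6% and 20.9% of all FPKM. In liver control 4 that gene was thus most of the mitochondrial share. Results that rest on liver control 1 are given without it as well.

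Methionine is an essential amino acid. Cells use it to start and extend proteins, to make the methyl donor S-adenosylmethionine and, through transsulfuration, to make cysteine. Liver carries much of the body's methionine turnover, whereas breast muscle is the largest protein store of a broiler. In mammals a lack of nutrients is known to change both tissues through amino acid sensing, insulin and glucocorticoid signals, and muscle then raises ubiquitin ligases and autophagy genes that break protein down. Several of these signals act on the same genes in liver, where they serve glucose and lipid supply.

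Across all 9142 genes the calls within a tissue were in muscle. The breast effect was called for 1289 genes higher (14.1% of those tested in both tissues) and 1251 genes lower (13.7%), while the liver effect was called for 0 genes (0%), with 754 genes (8.25%) at an unadjusted limma p under 0.05. The smallest adjusted p in liver was 0.0833 over 10185 genes. The diet changes of the tissues were nearly unrelated across genes, with a Pearson r of 0.0995 and a Spearman rank correlation of 0.135 over 9142 genes, given as a description since genes are not replicates. Signs were opposite in 44.1% of all genes tested, whatever the size of the change.

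The tissue difference was called for 9.22% of genes, above 0 for 479 (5.24%) and below 0 for 364 (3.98%), and 2308 genes had an unadjusted p under 0.05. A value below 0 means that the liver effect lay below the muscle effect. Opposite signs were held by 633 of the 843 genes, a count that is raised because a called difference favours opposite signs. Of all tested genes 347 had opposite signs and at least 0.25 in each tissue. Counts depended on single breast libraries. The 843 became 456 without breast control 2, 557 without breast control 4, 552 without breast deficient 3 and 518 without breast deficient 4. The 164 opposed genes became 108 without breast control 2 (106 of them shared with the 164) and 213 without liver control 5 (137 shared), and the 618 muscle-alone genes became 322, 398, 381 and 362 without breast control 2, breast control 4, breast deficient 3 and breast deficient 4. The scaling between libraries set the balance of directions. The scaling factors lay between 1.03 and 1.28 in control breast and between 0.772 and 0.994 in deficient breast, so that the diets did not overlap. Of the called genes 43.2% were below 0. The share was 3.85% of 1871 without scaling, where the median difference of all genes moved from -0.02 to 0.30, and 53.7% of 925 with all libraries scaled together. Both signs of the opposed genes were the same under each of the other scalings for 155 of the 164. The other 9, among them MCL1, C16orf72, SNRK, TIAL1 and INPP5B, had a breast change between -0.06 and -0.01 without scaling.

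**Figure D1:**
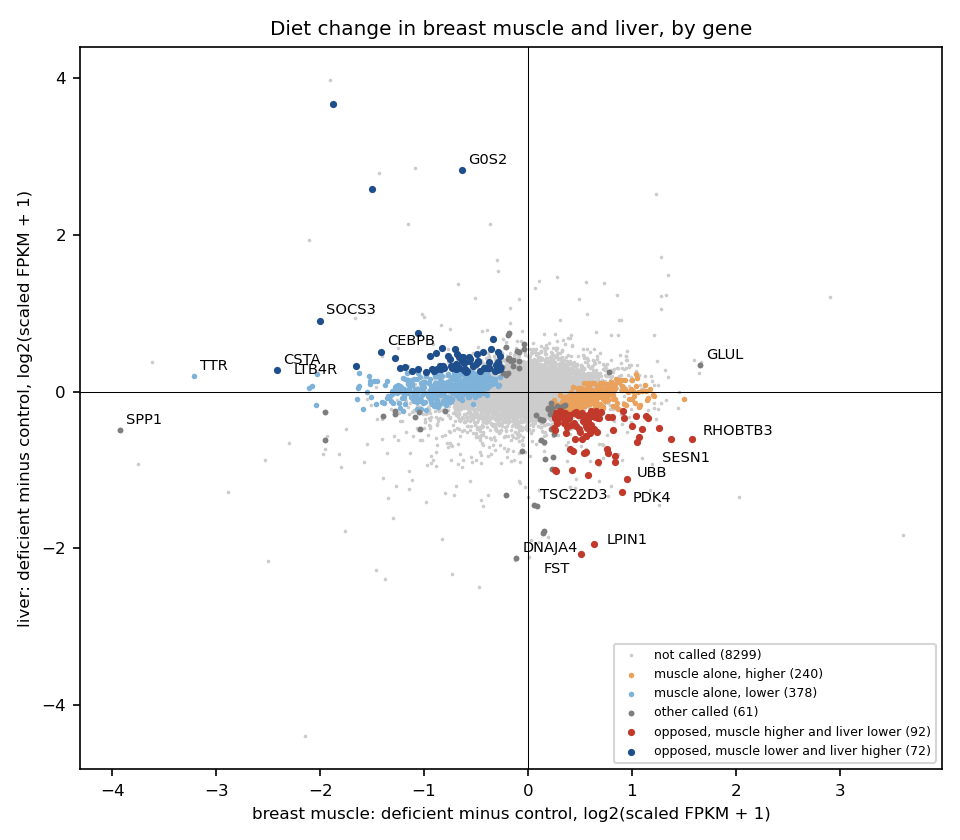
Diet change in breast muscle (x axis) and liver (y axis) for 9142 genes, each as deficient minus control in log2(scaled FPKM + 1). Opposed genes lie in the lower right (92, red) and upper left (72, dark blue), muscle-alone genes (240 higher, 378 lower) lie along the x axis, and light and dark grey points are not called or fall in neither class.

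The opposed genes had a median change of 0.56 in muscle and -0.41 in liver where muscle was higher, and of -0.63 in muscle and 0.34 in liver where muscle was lower. Over all genes tested these medians were 0.03 and 0.01. These sizes follow from how the genes were chosen. The counts of calls, small p and non-overlap below come from the same values and are also raised by that choice. All are given as a description. The breast effect itself was called for 123 of the 164 (27.8% of all tested), 69 where muscle was higher and 54 where it was lower. The liver effect was called for 0 of the 164, and 100 had an unadjusted liver p under 0.05 (8.25% of all tested). A called difference between tissues does not test the sign of the liver change. No gene was called in both tissues and for the difference with opposite signs, and 1, ZFAND5, met this without liver control 3. Libraries of the diets did not overlap in breast for 79 of the 164 genes (18.6% of all tested) and in liver for 16 (1.85% of all tested). At least 0.5 in both tissues was reached by 29 genes, 21 with muscle higher and 8 with muscle lower. With any 1 library left out, the 164 kept both signs wherever they still passed the FPKM filter, and 102 kept the call in every case. At the edge of the class, the opposed gene ENSGALG00000012080 had an adjusted p of 0.0495, and TMEM52, with changes of 0.42 in breast and -0.47 in liver, lay just outside at 0.0506. By size, C12orf5 was just inside with a liver change of -0.25, and PNRC1, with -0.55 in liver, just outside because its breast change of 0.25 was a shade under the minimum before rounding.

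FBXO32, FOXO3 and UBB, genes of protein breakdown, rose in deficient muscle and had lower mean levels in deficient liver, where no gene passed on its own. FBXO32 (ENSGALG00000016369, chr2:137644051-137668702, galGal4 as for all positions here) encodes atrogin-1, the F-box ubiquitin ligase subunit of muscle atrophy. FBXO32 in breast was at 14.5, 27.3, 17.2, 21.4 and 38.0 scaled FPKM in the 5 controls and at 42.0, 53.6, 78.7, 36.1 and 43.5 in the 5 deficient libraries, in order of replicate number as in every list below. FBXO32 in liver was at 8.26, 7.18, 4.53, 6.35 and 8.75 in controls and at 4.17, 5.89, 3.39, 5.24 and 4.88 in deficient libraries. Only breast control 5 reached into the deficient range of breast, and in liver control 3 lay below 3 of the 5 deficient libraries. The change was 1.09 (95% interval 0.51 to 1.68) in breast (limma adjusted p = 0.0132) and -0.48 (95% interval -0.85 to -0.10) in liver (adjusted p = 0.459), and the tissue difference was -1.57 ± 0.33 (SE) with a limma adjusted p of 0.00781.

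FOXO3 (ENSGALG00000015297, chr3:66702483-66716393) encodes a forkhead transcription factor that drives atrogin-1 and autophagy genes in mammalian muscle. FOXO3 in breast was at 6.79, 13.03, 7.34, 12.3 and 21.1 in controls and 21.97, 26.9, 24.5, 16.8 and 15.5 in deficient libraries. FOXO3 in liver was at 5.95, 18.4, 4.23, 9.23 and 10.5 in controls and 5.75, 4.35, 3.75, 4.10 and 4.45 in deficient libraries. The 5 deficient livers lay close together, 4 of the 5 control livers lay above all of them, and control 3 lay among them. Breast control 5 was the one control breast within the deficient range. Its difference of -1.66 ± 0.42 (SE) (limma adjusted p = 0.0204) joined a breast change of 0.83 (adjusted p = 0.0415) and a liver change of -0.82 (adjusted p = 0.461).

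UBB (ENSGALG00000004509, chr19:6584723-6586315) is a polyubiquitin gene, whose repeats are nearly identical to those of other polyubiquitin genes, so its FPKM may include reads of these. UBB in breast was at 2191, 2007, 1805, 2061 and 2555 in controls and 3635, 3250.2, 6244, 4915 and 3115 in deficient libraries. UBB in liver was at 3520.3, 2789.8, 2636, 3104 and 1265 in controls and 1709, 897, 1067, 1048 and 1228 in deficient libraries. Breast diets did not overlap, and in liver only control 5 lay within the deficient range. The difference was -2.07 ± 0.35 (SE) (limma adjusted p = 0.00204), from 0.95 in breast (adjusted p = 0.00680) and -1.12 in liver (adjusted p = 0.293).

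FAM134B (ENSGALG00000026200, chr2:75643885-75709051) encodes a receptor that hands endoplasmic reticulum to autophagy. FAM134B in breast was at 20.3, 28.1, 25.0, 26.6 and 32.1 in controls and 39.8, 38.0, 60.3, 54.6 and 47.9 in deficient libraries. FAM134B in liver was at 13.4, 15.8, 19.9, 13.7 and 28.0 in controls and 10.7, 13.2, 8.64, 11.2 and 3.96 in deficient libraries. The diets did not overlap in either tissue, all deficient breasts being above and all deficient livers below their controls. The tissue difference was -1.73 ± 0.34 (SE) (limma adjusted p = 0.00539), with 0.83 (95% interval 0.50 to 1.17) in breast and -0.89 (95% interval -1.53 to -0.26) in liver.

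ULK1, the kinase that starts autophagosome formation, had a change of 0.67 in breast (adjusted p = 0.0428) and -0.90 in liver (adjusted p = 0.576), a difference of -1.57 (limma adjusted p = 0.0428). The ULK1 call held without breast control 3, breast deficient 2 or 5, liver control 1 or 3 or liver deficient 5 and ended without any of the other 14 libraries, up to an adjusted p of 0.0882 without breast control 2. Of 19 tested genes on the list of muscle wasting and ubiquitin ligases 9 were called higher and 1 lower in breast, and 6 had a called difference below 0 and 0 above. Over all genes 3.98% were below 0, and in breast 14.1% were called higher and 13.7% lower. The 6 were FBXO32, FOXO3 and 4 genes of the muscle-alone class, UBE2B, a ubiquitin-conjugating enzyme, and the ligase subunits FBXO30, FBXO9 and ASB2. The count below 0 was 3 without scaling, 5 with quantile normalization and 6 with both other scalings. Without scaling 6 of the 19 were called higher and 3 lower in breast. The list's median change was 0.23 in breast and -0.07 in liver. Of 36 proteasome genes 7 were called higher in breast and 0 were called for the difference (0 of 36, where 9.22% of all genes were called). Without scaling 1 proteasome gene was higher and 4 were lower in breast, and 3 had a difference above 0.

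SESN1 (ENSGALG00000015286, chr3:66547545-66556746) encodes sestrin 1, which in mammals holds back the growth kinase complex mTORC1 when leucine is short. SESN1 in breast was at 68.3, 102, 93.6, 107 and 215 in controls and 251.7, 346, 371, 240.4 and 232 in deficient libraries. SESN1 in liver was at 111, 202, 98.3, 189 and 181 in controls and 75.3, 77.9, 123, 111 and 113 in deficient libraries. Breast diets did not overlap although breast control 5 stood above the other controls, and in liver controls 1 and 3 lay within the deficient range. The difference was -1.98 ± 0.37 (SE) (limma adjusted p = 0.00406), with 1.37 in breast (adjusted p = 0.00532) and -0.61 in liver (adjusted p = 0.504).

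PDK4 (ENSGALG00000009700, chr2:24033200-24043554) encodes the kinase that turns off pyruvate dehydrogenase and so spares glucose carbon. PDK4 in breast was at 49.1, 138, 80.9, 119 and 197 in controls and 152, 189, 278, 143 and 268 in deficient libraries. PDK4 in liver was at 123, 270.2, 135, 299 and 158 in controls and 54.2, 86.8, 55.6, 74.6 and 122 in deficient libraries. All 5 deficient livers lay below all 5 controls, by a hair for control 1 and deficient 5, whereas the breast diets overlapped through breast control 5. The liver change was -1.28 (95% interval -1.95 to -0.61) and the breast change 0.91 (95% interval 0.16 to 1.66), which alone did not pass (adjusted p = 0.290 and 0.0691). The difference of -2.19 ± 0.48 (SE) did (limma adjusted p = 0.00994).

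LPIN1 (ENSGALG00000016456, chr3:96971362-97044067) encodes lipin 1, the phosphatidate phosphatase of triglyceride synthesis, which also acts as a coactivator of fat oxidation genes in mouse liver. LPIN1 in breast was at 3.08, 3.14, 3.73, 4.31 and 7.23 in controls and 5.66, 6.93, 9.10, 8.10 and 5.54 in deficient libraries. LPIN1 in liver was at 46.2, 60.8, 18.4, 112 and 49.4 in controls and 7.202, 18.8, 8.86, 7.78 and 26.2 in deficient libraries. Liver control 4 was the highest and control 3 the lowest of the controls, and control 3 lay below 2 deficient livers. In breast only control 5 was within the deficient range. The difference was -2.58 ± 0.53 (SE) (limma adjusted p = 0.00690), with 0.64 in breast (adjusted p = 0.0345) and -1.94 in liver (adjusted p = 0.293), so the larger part of it lay in liver.

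Smaller differences of the same direction were found for TRIB1, a pseudokinase that marks C/EBP factors for degradation (0.57 in breast, -0.46 in liver, limma adjusted p of the difference = 0.0118), and for PKM, pyruvate kinase (1.13 and -0.31, adjusted p = 0.0189). The PKM liver change was -0.14 without liver control 1, in which PKM was at 37.0 scaled FPKM against 16.01 to 30.1 in the other controls, and the adjusted p was then 0.0317.

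FST (ENSGALG00000014908, chrZ:15930691-15938408) encodes follistatin, a secreted inhibitor of activins and of the muscle growth inhibitor myostatin. FST in breast was at 7.55, 4.09, 6.04, 3.17 and 5.35 in controls and 4.96, 7.07, 5.36, 13.002 and 10.02 in deficient libraries. FST in liver was at 18.2, 53.7, 10.4, 73.6 and 21.3 in controls and 3.35, 5.70, 3.19, 8.67 and 11.6 in deficient libraries. Liver controls 2 and 4 were highest, control 3 was below deficient 5, and the breast diets overlapped widely. Neither tissue passed alone, with 0.51 (95% interval -0.06 to 1.08) in breast (adjusted p = 0.164) and -2.08 (95% interval -3.21 to -0.94) in liver (adjusted p = 0.293), while the difference was -2.59 ± 0.60 (SE) (limma adjusted p = 0.0132).

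GHR, the growth hormone receptor (ENSGALG00000014855, chrZ:13287241-13417571, 1 of 2 gene entries with this symbol), had 0.58 in breast (adjusted p = 0.0132) and -0.41 in liver (adjusted p = 0.605), a difference of -0.99 (limma adjusted p = 0.0149). GHR in liver was at 176, 175, 168, 165 and 125 in controls and 126, 137, 139.7, 142 and 75.2 in deficient libraries, so that replicate 5 was the lowest of each diet. IRS4, an adaptor of insulin receptors, had 0.47 and -0.43 (adjusted p of the difference = 0.0487). The IRS4 call held only without breast deficient 1 or without liver control 3 and ended without any of the other 18 libraries, up to an adjusted p of 0.0894 without liver control 4.

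RHOBTB3, SESN1 and SLC25A33 had the largest breast changes of the named opposed genes with muscle higher. RHOBTB3 (ENSGALG00000014675, chrZ:57184773-57211538) in breast was at 0.516, 0.272, 0.892, 0.946 and 0.778 in controls and 3.44, 2.86, 5.08, 5.14 and 3.70 in deficient libraries. RHOBTB3 in liver was at 2.09, 2.51, 2.06, 5.68 and 4.99 in controls and 0.858, 2.44, 1.19, 2.16 and 2.60 in deficient libraries. All deficient breasts exceeded all controls, and the livers overlapped. The difference was -2.19 ± 0.33 (SE) (limma adjusted p = 0.00136), with 1.58 in breast and -0.61 in liver.

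SLC25A33 (ENSGALG00000002519, chr21:3398305-3417478) encodes a carrier of pyrimidine nucleotides into mitochondria. SLC25A33 in breast was at 5.55, 7.79, 4.35, 6.28 and 8.64 in controls and 12.2, 15.6, 21.4, 18.8 and 16.7 in deficient libraries. SLC25A33 in liver was at 24.1, 33.2, 35.1, 33.8 and 31.2 in controls and 17.5, 16.1, 32.0, 27.1 and 22.3 in deficient libraries. Control and deficient breasts did not overlap, and in liver control 1 lay below deficient 3 and 4 and control 5 below deficient 3. The difference was -1.73 ± 0.27 (SE) (limma adjusted p = 0.00153), with 1.26 in breast and -0.47 in liver.

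**Figure D2:**
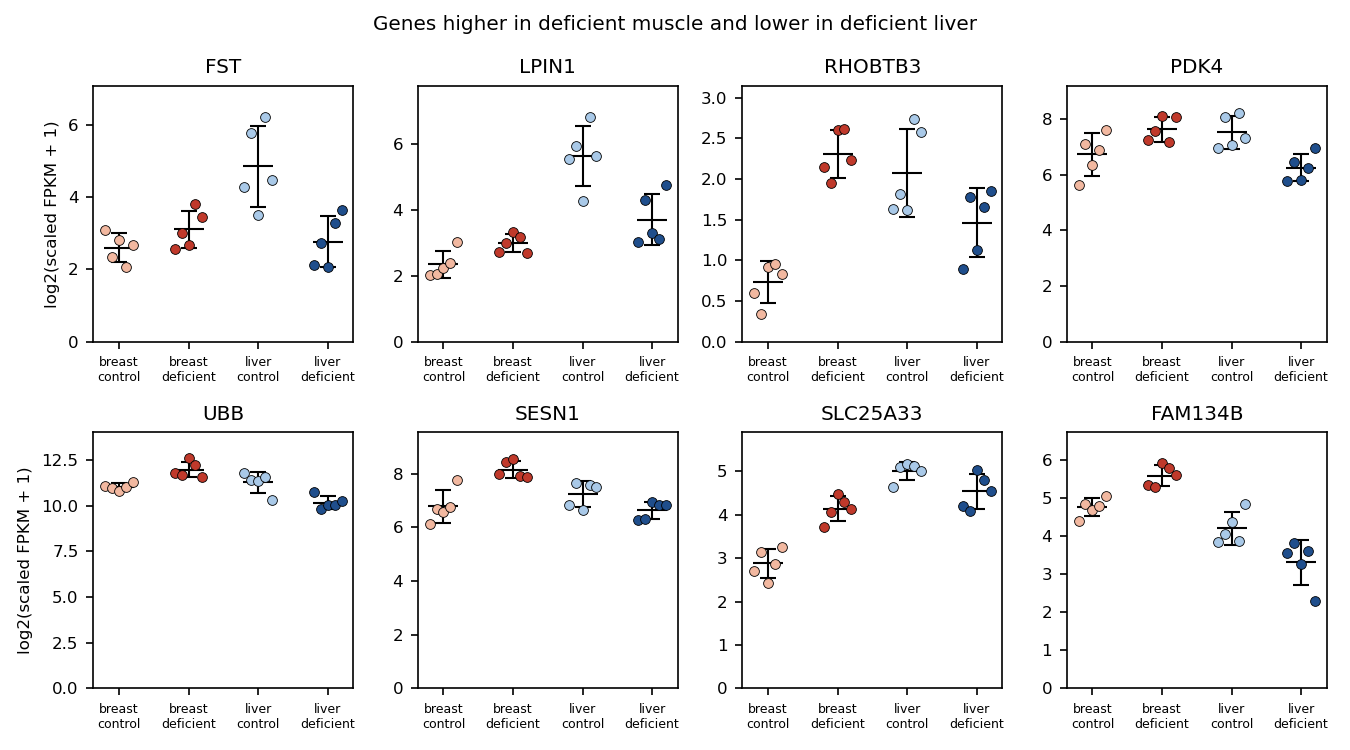
Level of 8 opposed genes in each of the 20 libraries, as log2(scaled FPKM + 1) on axes that start at 0, with the mean and SD of the 5 libraries of a group. Group means of deficient breast lie above those of control breast and means of deficient liver below those of control liver, with no overlap in either tissue for FAM134B and, in liver, for PDK4.

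The opposed genes described next were lower in deficient muscle and higher in deficient liver by mean level. SOCS3 (ENSGALG00000027786, chr18:10116718-10117433) encodes a feedback inhibitor of cytokine receptors. SOCS3 in breast was at 13.7, 22.1, 11.01, 17.6 and 23.5 in controls and 5.54, 5.83, 1.47, 1.53 and 5.45 in deficient libraries. SOCS3 in liver was at 12.1, 4.09, 3.41, 12.8 and 10.6 in controls and 15.4, 25.8, 29.0, 19.7 and 2.93 in deficient libraries. Breast diets were far apart, and in liver 4 deficient libraries lay above all controls while deficient 5 lay below all of them. In breast the level fell. The difference was 2.91 ± 0.69 (SE) (limma adjusted p = 0.0138), with -2.002 (95% interval -2.75 to -1.25) in breast (adjusted p = 0.00297) and 0.91 (95% interval -0.32 to 2.13) in liver (adjusted p = 0.733), an interval that includes 0.

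CEBPB (ENSGALG00000008014, chr20:14054696-14055682) encodes a C/EBP transcription factor of the acute phase and of gluconeogenic genes. CEBPB in breast was at 44.3, 50.3, 29.4, 50.1 and 43.7 in controls and 10.9, 16.4, 16.9, 12.1 and 24.2 in deficient libraries. CEBPB in liver was at 59.5, 49.8, 78.7, 50.7 and 62.7 in controls and 80.9, 124, 71.5, 109 and 56.4 in deficient libraries. Breast diets did not overlap, and deficient livers 1, 2 and 4 lay above every control liver. The difference was 1.92 ± 0.31 (SE) (limma adjusted p = 0.00184), with -1.41 in breast (adjusted p = 0.00176) and 0.51 in liver (adjusted p = 0.574).

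G0S2 (ENSGALG00000023933, chr26:3082074-3082959) encodes an inhibitor of the triglyceride lipase ATGL. G0S2 in breast was at 68.1, 127, 48.1, 97.3 and 108 in controls and 57.4, 59.4, 45.8, 69.4 and 43.0 in deficient libraries. G0S2 in liver was at 10.7, 5.21, 66.5, 10.4 and 14.3 in controls and 296, 77.3, 301, 141 and 14.3 in deficient libraries. Control 3 was far above the other control livers, and deficient 5 far below the other deficient livers. The difference was 3.46 ± 0.93 (SE) (limma adjusted p = 0.0266), most of it from the liver change of 2.82 (95% interval 0.94 to 4.70) beside a breast change of -0.64 (95% interval -1.18 to -0.10). Neither passed alone (adjusted p = 0.385 and 0.0750). The call ended without breast control 2 (adjusted p = 0.0562) or without liver control 2.

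CSF1R (ENSGALG00000005725, chr13:12594407-12611465) encodes the receptor that keeps macrophages alive. CSF1R in breast was at 37.8, 47.2, 40.4, 37.6 and 39.3 in controls and 18.5, 27.2, 17.9, 21.6 and 29.0 in deficient libraries. CSF1R in liver was at 37.9, 31.4, 27.7, 30.0 and 27.1 in controls and 32.0, 53.4, 40.3, 38.3 and 32.7 in deficient libraries. The diets were apart in breast, and liver control 1 lay above the 2 lowest deficient livers. The difference was 1.15 ± 0.21 (SE) (limma adjusted p = 0.00326), with -0.82 in breast (adjusted p = 0.00305) and 0.33 in liver (adjusted p = 0.607). In bulk tissue, fewer cells of a type and less RNA per cell cannot be told apart.

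MERTK, a receptor for the uptake of dying cells, had -0.60 in breast and 0.26 in liver (limma adjusted p of the difference = 0.00889). IRF8, a transcription factor of macrophages and dendritic cells, had -0.63 and 0.44 (adjusted p = 0.0124), with no overlap of the diets in breast. Of 17 macrophage markers 14 were called lower in breast (13.7% of all genes), 12 had a called difference above 0 (5.24% of all genes) and 0 below. The count was between 12 and 15 under the other scalings. CSF1R and MERTK were opposed and the other 10 changed in muscle alone, so for most of the list the liver change was smaller than 0.25. The 17 markers summed to between 1777 and 2166 scaled FPKM in control breast and between 998 and 1178 in deficient breast. Liver sums were between 2015 and 2408 in controls and between 2052 and 2696 in deficient libraries, and no marker was at 0 in all libraries of a group. The part of these sums in the differences of single immune genes was not tested. The fall in breast was not particular to macrophage markers. Called lower in breast were also 9 of 11 heterophil, 4 of 5 B cell and 6 of 11 T and NK cell markers (13.7% of all genes). On these lists 4, 2 and 2 markers had a called difference above 0 (5.24% of all genes), and 0 below.

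SRGN (ENSGALG00000004167, chr6:10403302-10408400) encodes serglycin, the proteoglycan of white blood cell granules. SRGN in breast was at 44.3, 41.5, 39.9, 38.3 and 42.3 in controls and 16.8, 18.1, 17.1, 14.4 and 18.8 in deficient libraries. SRGN in liver was at 19.7, 29.9, 30.2, 23.7 and 28.9 in controls and 32.1, 18.9, 51.4, 42.9 and 26.9 in deficient libraries. The breast groups were tight and far apart, and the liver groups overlapped widely. The difference was 1.54 ± 0.27 (SE) (limma adjusted p = 0.00247), with -1.23 in breast (adjusted p = 9.72e-05) and 0.31 (95% interval -0.23 to 0.85) in liver, or 0.21 in liver without liver control 1.

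LTB4R (ENSGALG00000021512, chr11:51584-52510) encodes a receptor for leukotriene B4. LTB4R in breast was at 8.34, 14.2, 10.8, 10.6 and 7.1997 in controls and 2.06, 1.51, 1.38, 2.52 and 6.94 in deficient libraries. LTB4R in liver was at 8.75, 7.66, 7.83, 7.76 and 7.70 in controls and 10.6, 12.3, 10.2, 10.9 and 7.69 in deficient libraries. Breast deficient 5 lay near the controls, and in liver 4 deficient libraries lay above all controls and deficient 5 within them. The difference was 1.99 ± 0.34 (SE) (limma adjusted p = 0.00228), with -1.66 in breast (adjusted p = 0.00401) and 0.33 in liver (adjusted p = 0.432).

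CCL4 (ENSGALG00000000956, chr19:352190-372634) encodes a chemokine. It is 1 of 2 overlapping gene entries with this symbol, so reads of both may be mixed. CCL4 in breast was at 25.5, 13.3, 24.2, 12.8 and 22.2 in controls and 12.2, 4.94, 8.09, 5.29 and 7.01 in deficient libraries. CCL4 in liver was at 0.524, 0.277, 1.499, 1.14 and 0.982 in controls and 1.59, 1.26, 1.07, 1.53 and 1.999 in deficient libraries. Breast diets did not overlap, the livers did, and liver levels were near 1 scaled FPKM, where the log2 scale with its added 1 understates change. The difference was 1.71 ± 0.33 (SE) (limma adjusted p = 0.00450), with -1.28 in breast and 0.43 in liver.

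CSTA (ENSGALG00000014412, chr1:76253583-76258549) encodes cystatin A, an inhibitor of cysteine proteases. CSTA in breast was at 162, 257, 78.4, 121 and 208 in controls and 15.7, 17.6, 27.8, 15.5 and 131 in deficient libraries. CSTA in liver was at 7.43, 5.69, 6.19, 4.35 and 6.69 in controls and 14.5, 3.80, 7.30, 6.50 and 8.40 in deficient libraries. Breast deficient 5 was the only deficient breast within the control range, and the livers overlapped. The difference was 2.70 ± 0.65 (SE) (limma adjusted p = 0.0149), nearly all of it from the breast change of -2.42 (adjusted p = 0.0103), with 0.28 (95% interval -0.30 to 0.85) in liver.

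SULT1B1 (ENSGALG00000023122, chr4:51208551-51210637) encodes a sulfotransferase of the cytosol. It is 1 of 2 neighbouring gene entries with this symbol, between which reads may have been split. SULT1B1 in breast was at 6.06, 6.19, 6.01, 5.83 and 5.21 in controls and 1.05, 3.14, 1.68, 2.49 and 3.82 in deficient libraries. SULT1B1 in liver was at 19.4, 12.7, 16.8, 35.8 and 11.5 in controls and 32.8, 26.1, 37.8, 34.8 and 22.8 in deficient libraries. The breast groups were apart, and without liver control 4 the livers would not have overlapped either. The difference was 1.81 ± 0.35 (SE) (limma adjusted p = 0.00491), with -1.06 in breast (adjusted p = 0.00445) and 0.75 in liver (adjusted p = 0.469).

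ABCA1, the pump that loads cholesterol onto apolipoprotein A1, had -0.43 in breast and 0.30 in liver (limma adjusted p of the difference = 0.0447). The ABCA1 call held without breast control 1 or 3, breast deficient 5, liver control 4 or liver deficient 1 and ended without any of the other 15 libraries, up to an adjusted p of 0.0856 without breast control 2.

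**Figure D3:**
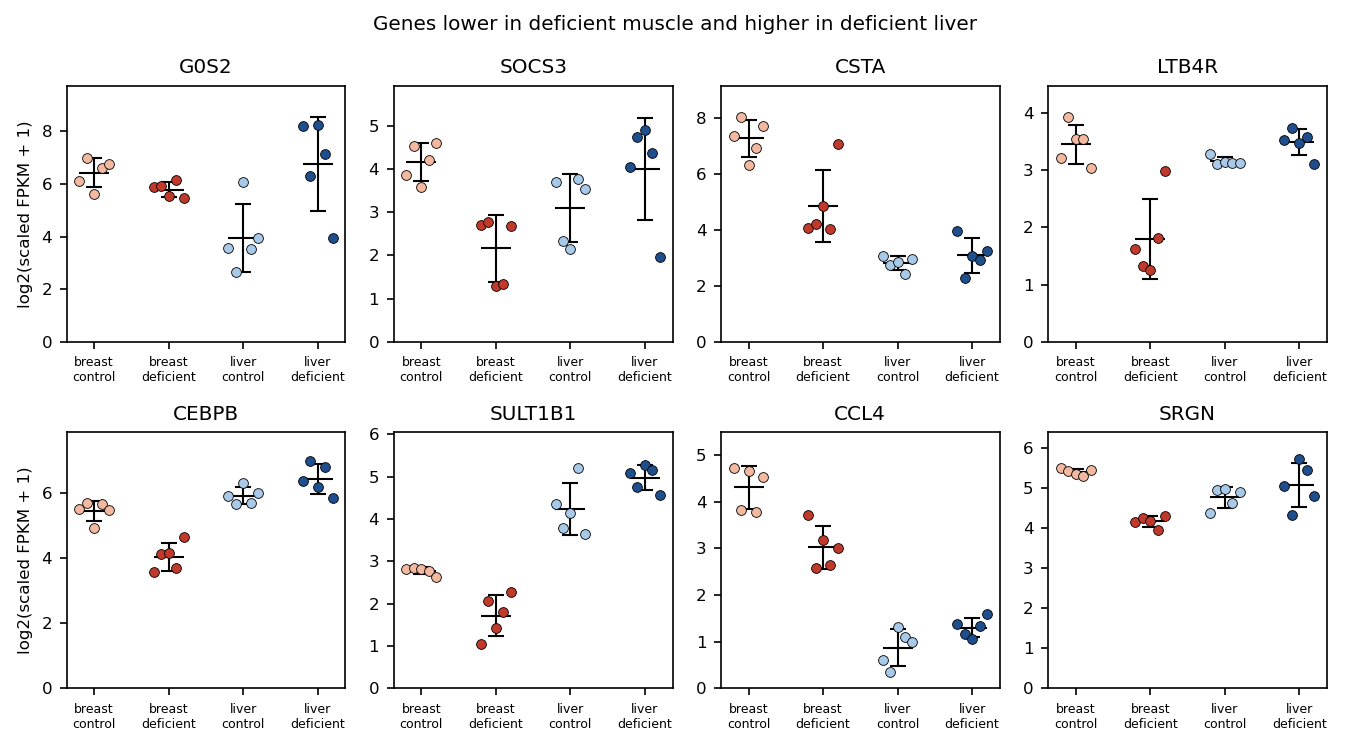
Level of 8 opposed genes in each of the 20 libraries, as log2(scaled FPKM + 1) on axes that start at 0, with the mean and SD of the 5 libraries of a group. Deficient breast lies below control breast for most libraries, breast deficient 5 being nearest to the controls for CSTA and LTB4R, and the liver groups overlap in all 8 genes.

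**Figure D4:**
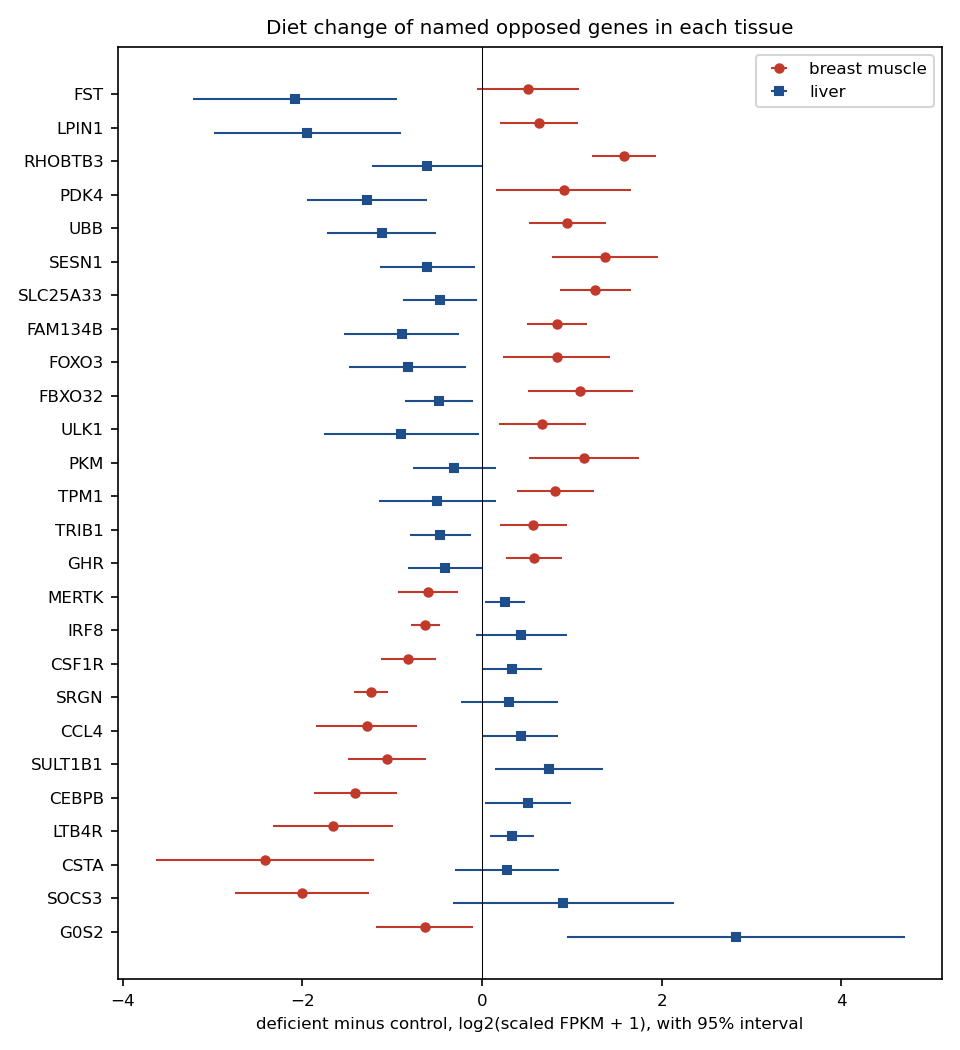
Diet change of 26 named opposed genes in breast muscle (circles) and liver (squares) as deficient minus control in log2(scaled FPKM + 1), with 95% intervals from the fit of each tissue. Liver intervals are widest for G0S2, SOCS3, FST and LPIN1, and several liver intervals, such as those of CSTA and SRGN, include 0.

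The diets overlapped in neither tissue, with opposite directions, for 7 of the 9142 genes (0.0766%). Over all genes, whatever the direction, 18.6% did not overlap in breast and 1.85% in liver. Whether 7 is more or fewer than unrelated tissues would give was not tested, so the count is a description and shows no excess. All 7 were opposed genes, a class chosen from the same values. The 7 were FAM134B, MAGI1, MBNL2, C16orf72 and TIAL1 with muscle higher and ABR and WWP2 with muscle lower. They were named for this after their values were seen. MBNL2, an RNA splicing factor of muscle, was at 11.9, 10.8, 12.9, 12.4 and 13.2 in control breast and 19.7, 20.3, 19.2, 20.5 and 14.8 in deficient breast. MBNL2 in liver was at 6.59, 7.70, 6.61, 8.47 and 6.48 in controls and 3.89, 5.21, 4.92, 6.28 and 5.27 in deficient libraries. Its changes were 0.58 and -0.42 (limma adjusted p of the difference = 0.00136). ABR had -0.38 in breast and 0.29 in liver (adjusted p = 0.00155), and WWP2, a ubiquitin ligase, had -0.30 and 0.34 (adjusted p = 0.00847). MAGI1, a scaffold of cell junctions, had 0.45 and -0.60 (adjusted p = 0.00323). C16orf72 and TIAL1 had breast changes of 0.28 and 0.31, which were -0.05 and -0.01 without scaling.

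Liver control 1 carried part of the set, as other libraries did. Without it 140 of the 164 kept the call and both signs, and 126 also kept at least 0.25 in each tissue. With other single livers left out, the opposed genes shared with the 164 ran from 115 (liver deficient 3) to 137 (liver control 5). Over the breast libraries they ran from 106 (breast control 2) to 152 (breast deficient 5). A loss of this size is thus not particular to liver control 1. Of the named genes PKM, TPM1 and SRGN had liver changes under 0.25 in size without it (-0.14, -0.19 and 0.21). TPM1, tropomyosin 1 of the fast contractile list, was at 92.6, 27.5, 32.6, 33.9 and 30.2 in control livers and 32.0, 28.5, 22.5, 23.7 and 30.2 in deficient livers, and its liver change went from -0.49 to -0.19 without liver control 1, with an adjusted p of the difference of 0.0189. The TPM1 call ended without breast control 2 or 4, breast deficient 3 or 4 or liver deficient 3 or 4, up to an adjusted p of 0.0659 without breast control 2. PKIA, an inhibitor of protein kinase A, was opposed (0.59 in breast, -0.49 in liver) and fell below the FPKM filter in liver without liver control 1. Its call also ended without breast control 2 or 4, breast deficient 2 or 4, liver control 4 or liver deficient 1 or 3, and the highest adjusted p was 0.0712. MGAT5B, a glycosyltransferase, had a difference of 1.24 (adjusted p = 0.0366) that became 1.13 without liver control 1 (adjusted p = 0.0619). The MGAT5B call ended without any of 9 libraries, up to an adjusted p of 0.0695 without breast deficient 4. The 2 largest differences of all opposed genes belonged to small nucleolar RNAs shorter than 200 bases, SNORA40 (5.55, adjusted p = 0.0383) and SNORA25 (4.09, adjusted p = 0.0396). SNORA40 was at 13.02, 59.7, 31.5, 0 and 16.7 in control breast, 41.5, 16.5, 0, 0 and 0 in deficient breast, 0, 16.2, 0, 0 and 0 in control liver and 21.7, 11.7, 31.4, 21.5 and 26.9 in deficient liver. SNORA25 was at 9.04, 7.01, 0, 0 and 22.6 in control breast, 9.44, 0, 0, 0 and 0 in deficient breast, 0, 0, 0, 0 and 0 in control liver and 7.87, 8.50, 0, 7.79 and 9.75 in deficient liver. None of these values was marked as failed in the files. A 0 of so short a gene may still be a poor estimate, so these sizes are no measure of fold. Leaving out any of 15 libraries ended the SNORA40 call (adjusted p up to 0.0806) and any of 14 that of SNORA25 (up to 0.0788), liver control 1 and breast control 2 being among them for both.

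The genes that changed in muscle alone form a separate and larger class, with 240 higher (2.63% of genes tested) and 378 lower (4.13%), together 6.76%. Their median breast change was 0.58 and -0.76, with liver medians of -0.06 and 0.05. For 527 of the 618 the 95% interval of the liver change lay within 0.5 on either side of 0, which bounds the liver change and does not show that there was none. The liver sign was opposite to that of breast in 423 of the 618, where 44.1% of all genes tested had opposite signs. A called difference favours liver changes opposite to those of breast, so the 423 are raised by the choice and are a description. The call and signs held without liver control 1 for 439.

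The 4 largest rises of this class were those of ASB2, KCTD20, VAMP1 and MYOM1. ASB2, a ubiquitin ligase subunit of muscle, was at 30.5, 32.0, 60.8, 43.6 and 51.1 in control breast and 102, 81.8, 169, 189 and 97.1 in deficient breast, with no overlap. ASB2 in liver was at 0.911, 1.28, 1.40, 2.03 and 1.47 in controls and 1.28, 0.510, 1.57, 2.06 and 1.12 in deficient libraries. Its change was 1.4999 in breast (limma adjusted p = 0.00341) and -0.09 (95% interval -0.51 to 0.33) in liver. MYOM1, a protein of the sarcomere M-band, had 1.18 in breast and 0.04 (95% interval -0.39 to 0.46) in liver. KCTD20, a protein with a BTB-like domain, had 1.21 and -0.05 (95% interval -0.37 to 0.26). VAMP1, a vesicle fusion protein, had 1.20 and -0.04 (95% interval -0.32 to 0.23), and its call of the difference (adjusted p = 0.0495) ended without any of 16 libraries, the exceptions being breast control 1, 3 and 5 and breast deficient 5, with an adjusted p of 0.0972 without breast control 2.

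TTR, MDK and PLTP had the 3 largest falls of this class among genes with a symbol. TTR, the thyroid hormone and retinol carrier transthyretin that liver secretes, was at 44.7, 77.8, 31.5, 70.5 and 53.2 in control breast and 3.51, 5.63, 2.21, 2.44 and 19.0 in deficient breast. TTR in liver was at 8923, 6239, 8341, 10167 and 4944 in controls and 12114, 10307, 7384, 9138 and 5428 in deficient libraries, far above the breast level. Breast diets did not overlap, and breast deficient 5 was the highest deficient library. Its change was -3.21 in breast (limma adjusted p = 0.00162) and 0.19 (95% interval -0.37 to 0.76) in liver. The 22 hepatocyte markers summed to between 1965 and 3273 scaled FPKM in control breast and between 754 and 2685 in deficient breast, and the part of this in the TTR change was not tested. PLTP, the phospholipid transfer protein, had -2.08 in breast and 0.07 (95% interval -0.22 to 0.37) in liver. Its liver means were low, at 1.80 scaled FPKM in controls and 1.94 in deficient libraries. MDK, the growth factor midkine, had -2.10 and 0.05 (95% interval -0.39 to 0.50).

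Counts over pathway lists set the classes beside each other. Of the 164 opposed genes 20 (12.2%) were on any of the 30 pathway lists, as were 9.28% of all genes tested. Inflammatory signalling had 22 of 45 genes called lower in breast (13.7% over all genes) and 13 with a difference above 0 (5.24% over all genes). CSF1R and CCL4 were opposed and the other 11, such as the receptor TLR4 (-1.27 in breast, 0.08 in liver) and the adaptor MYD88 (-0.78 and -0.07), changed in muscle alone. The list's count above 0 ran from 9 with quantile normalization to 25 without scaling, where 33 of 47 were called lower in breast. Lysosome and autophagy had 18 of 56 lower and 8 higher in breast (13.7% and 14.1% over all genes). The difference was above 0 for 12 of these genes, all of them of the muscle-alone class, such as the proteases CTSS (-1.25 and 0.09) and CTSK (-1.21 and -0.08), and below 0 for ULK1. CTSS is also a macrophage marker. Without scaling this list had 22 above 0 and 0 below, and with all libraries scaled together 11 and 3. Its breast counts were 29 lower and 0 higher without scaling, and 17 and 9 with all libraries scaled together.

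Glucocorticoid-responsive genes had 5 of 21 tested with a difference below 0 (3.98% over all genes) and 1 above. PDK4, FOXO3 and SESN1 were opposed with muscle higher and CEBPB with muscle lower. TSC22D3 (0.06 in breast, -1.45 in liver) and GLUL (1.65 and 0.34) belonged to neither class. The GLUL call did not hold without liver control 1. Without scaling 4 were below 0 and 4 above. The list's liver median was -0.41, and -0.30 without liver control 1, against 0.01 over all genes, and its breast median was -0.15. For the amino acid shortage response 3 of 27 lay above 0 and 3 below (5.24% and 3.98% over all genes). SESN1, TRIB1, CEBPB and ALDH18A1, an enzyme of proline synthesis (-0.53 in breast, 0.33 in liver), were opposed, and CEBPG and SESN3 changed in muscle alone. For amino acid breakdown 18 of 29 genes were higher in breast (14.1% over all genes), and 5 had a difference below 0, of which 1 was opposed. That count ran from 1 without scaling or with quantile normalization to 6 with all libraries scaled together. Without scaling 9 of the 29 were called higher in breast. Oxidative phosphorylation had 43 of 59 genes called higher in breast (14.1% over all genes). Its differences were 3 below 0 and 1 above (3.98% and 5.24% over all genes), with a liver median of 0.08. Here, too, the count below 0 depended on the scaling, from 0 without scaling to 8 with all libraries scaled together. Without scaling 8 of the 59 were called higher and 3 lower in breast, and the breast median went from 0.49 to 0.16.

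The insulin-like growth factor axis had 3 of 20 below 0 and 1 above. GHR and IRS4 were opposed, and without scaling no member lay below 0 and 4 above. For this list and those that follow, the shares over all genes were 3.98% below 0 and 5.24% above. In breast they were 14.1% called higher and 13.7% lower. Fatty acid and triglyceride synthesis had 1 of 28 in each direction, LPIN1 and G0S2, both of them opposed. Acute phase proteins had 8 of 11 called lower in breast and 3 differences above 0, with SOCS3 opposed and TTR and CD14 in muscle alone. The interferon response had 12 of 36 lower and 1 higher in breast and 4 differences above 0, of which IRF8 was opposed. Extracellular matrix (14 of 43 lower in breast, 7 above 0) and complement and coagulation (13 of 22 lower, 4 above 0) held no opposed gene. Without scaling the counts above 0 were 9 for the interferon response, 14 for extracellular matrix and 8 for complement and coagulation. With quantile normalization they were 3, 6 and 4. In breast 27, 26 and 16 genes of these lists were called lower without scaling. None of 60 ribosomal protein genes was called in either tissue or for the difference.

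**Figure D5:**
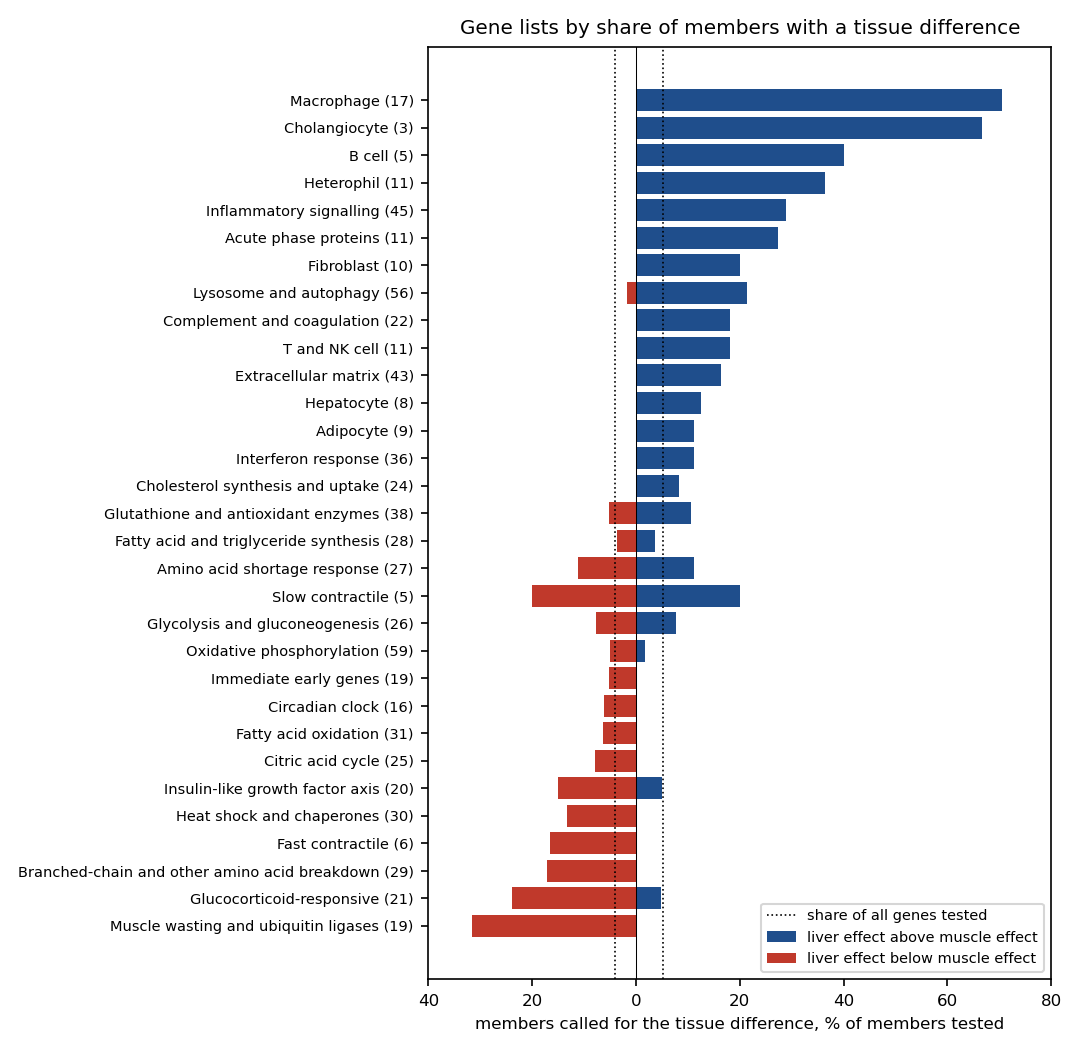
Share of the tested members of each gene list with a called tissue difference, above 0 (right, blue) and below 0 (left, red), with the number of members tested in brackets and the shares over all genes, 5.24% and 3.98%, as dotted lines. Macrophage markers reach farthest to the right (12 of 17) and muscle wasting genes farthest to the left (6 of 19), and lists with no called member are not drawn.

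Methionine genes were not among the opposed genes. Of 29 genes of the methionine cycle and one-carbon list 7 were called higher and 1 lower in breast, and 0 were called for the difference. For the 12 genes of transsulfuration and cysteine use these counts were 1, 1 and 0. The shares over all genes were 14.1% higher and 13.7% lower in breast and 9.22% called for the difference. Without scaling the first list had 1 higher and 4 lower in breast and 2 differences above 0, and the second had 0, 2 and 2. MAT1A, which makes S-adenosylmethionine in liver, had 0.10 in breast and -0.20 (95% interval -1.04 to 0.63) in liver. BHMT, which remethylates homocysteine with betaine, had 0.39 and 0.25 (95% interval -0.75 to 1.26). CTH, which releases cysteine, had 0.52 in breast (limma adjusted p = 0.0124) and 0.05 (95% interval -0.51 to 0.60) in liver, with an adjusted p of 0.321 for the difference. The methionine synthase MTR had -0.29 in breast and 0.10 in liver, and AHCY, GNMT and CDO1 had differences of -0.17, 0.02 and -0.31. ASNS, asparagine synthetase, had -0.20 and 0.12, and the growth factor gene IGF-I had 0.24 and -0.08. CHAC1, a glutathione-degrading enzyme, had -1.46 in breast and -2.28 (95% interval -3.70 to -0.87) in liver, the same direction in both tissues. None of these 10 genes was called for the difference (adjusted p between 0.208 and 0.976), and a p that misses the threshold does not show that the tissues responded alike.

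In control birds 41 of the 92 genes with muscle higher and 35 of the 72 with muscle lower had a higher mean FPKM in liver than in breast, against 50.6% of all genes tested, 27.5% of the muscle-alone genes that were higher and 46.6% of those that were lower. Control levels are also the baseline of the diet changes that chose the genes, so these shares are a description. Median transcript length was 2534 bases where muscle was higher and 1750 where it was lower, against 2161 over all genes. Pairs of opposed genes within 200 kb of each other numbered 9, in 7 of which both genes went the same way. Among them are the small nucleolar RNAs SNORA40 and SNORA25, 4.25 kb apart. How many such pairs other sets of tested genes would hold was not counted, so these numbers are a description. SESN1 and FOXO3 are 146 kb apart on chromosome 3, and ROCK2 and LPIN1 169 kb apart on the same chromosome.

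Single libraries differed in how far the opposed genes lay from the control mean. These genes were chosen for their changes in the same libraries, so the direction of the distances follows from the choice. The values are a description. Over all 9142 genes the median distance lay between -0.02 (liver control 4) and 0.05 (breast deficient 3). Over the 92 genes with muscle higher, the median distance from the control mean was 0.36 in breast deficient 5 and between 0.52 and 0.71 in the other 4 deficient breasts. Breast deficient 5 was the lowest of the 5 deficient breasts in 47 of the 92 genes and the highest in 32 of the 72 genes with muscle lower. In liver the same 92 genes had a median distance between -0.50 and -0.35 in the 5 deficient libraries. Among control livers, control 3 was at -0.21 and was the lowest of the 5 in 36 of the 92 genes. For the 72 genes with muscle lower, liver deficient 5 was at 0.23 and the other 4 deficient livers between 0.39 and 0.44.

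The 61 genes of neither class included some with a difference led by liver. DNAJA4, a cochaperone, had -0.11 in breast and -2.12 (95% interval -2.83 to -1.41) in liver (limma adjusted p of the difference = 0.0112). TSC22D3, known in mammals as the glucocorticoid-induced leucine zipper GILZ, had 0.06 and -1.45 (95% interval -1.97 to -0.94) (adjusted p = 0.00294). HSP90AA1 had -1.79 in liver and HSP70 -1.80, with differences called at adjusted p of 0.0336 and 0.0405, and leaving out single libraries ended these calls in 9 and 14 of 20 cases, with adjusted p up to 0.0713 and 0.0856. These genes were named after their values were seen. Of 30 heat shock and chaperone genes 4 had a difference below 0 (3.98% over all genes) and 0 above. In breast 5 were called higher (14.1% over all genes). The count below 0 ran from 2 with quantile normalization to 5 with all libraries scaled together. Without scaling 3 were below 0 and 1 above, and in breast 1 was called higher and 6 lower.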

How the data were processed

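RNA sequencing libraries of breast muscle and liver were measured, 20 in all and 5 per group. Per the submitters' processing notes, which name tools without their roles, the tools were Cuffdiff 2.1.1, Cufflinks 2.1.1, TopHat2 2.0.9 and Bowtie 1.0.0, with the galGal4 build. Per the file headers the deposited values are FPKM per gene in Cufflinks format, 1 file per library, for 17108 genes, and FPKM and coverage (a mean read-depth signal) per transcript. Deposited coverage served only to describe depth. FPKM are not counts, so no count model was used and no counting interval can be given. Genes with an estimate that the authors' files mark as failed in any library of a tissue were left out for that whole tissue. They were also left out of the tissue difference. The marked libraries were all 10 for ALB in liver and, in breast, 7 for GAPDH, 1 for ACTN1 and 1 for ACTA1.

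FPKM were divided by a median-ratio factor within each tissue. Then log2(scaled FPKM + 1) was fitted with limma 3.58.1 (R 4.3.3, trend, two-sided, Benjamini-Hochberg adjustment). Each tissue was fitted alone, over genes with a mean of at least 1 in that tissue, and the liver-minus-breast difference over all 20 libraries. Changes are on that log2 scale, which understates those of low genes. The fit was tested on simulated data.

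Labels do not say which libraries share a bird, nor whether RNA was pooled; p-values measure the spread between these libraries. In same-numbered pairs deviations correlated between 0.00966 and 0.211, over 0.1 in 5 of 10. By correlation 7 breast and 8 liver libraries were nearest to their own number, and how many unrelated libraries would be was not tested. As 5 birds ate each diet per the labels, breast and liver libraries of a diet share birds, in pairs that are not given. As the labels do not give the pairing, the main fit left it out, and its p-values ignore any sharing. With replicate number as a block, 787 genes (fixed) or 1079 (random) were called for the difference, against 843. Members, gene lists and definitions were chosen with earlier results of these data known. Genes were named by rule: the 8 most positive and 8 most negative differences among opposed genes that held without liver control 1, the 4 largest that did not, up to 3 opposed genes per list, the 4 largest rises and 4 largest falls in muscle alone, and a methionine panel (CBS and FGF21 were not tested). A few genes that this rule names are not reported here. Further examples from lists were chosen after their values were seen. Alternatives were other scalings, pseudocounts, filters, variance models, thresholds and left-out libraries.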

Additional observations from a re-analysis of the deposited data

Results flagged for a closer look

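The tissue difference itself was called for 843 genes, among them 39 of 49 named genes, and the test of each difference is the one of the report. Of named opposed genes with muscle higher and liver lower, the liver-minus-breast difference was -2.59 for FST, -2.58 for LPIN1, -2.19 for RHOBTB3, -2.19 for PDK4, -2.07 for UBB, -1.98 for SESN1, -1.73 for SLC25A33 and -1.73 for FAM134B. It was -1.66 for FOXO3, -1.57 for FBXO32, -1.57 for ULK1, -1.44 for PKM, -1.31 for TPM1, -1.08 for PKIA, -1.04 for TRIB1, -0.99 for GHR and -0.90 for IRS4. Where muscle was lower and liver higher, it was 5.55 for SNORA40, 4.09 for SNORA25, 3.46 for G0S2, 2.91 for SOCS3, 2.70 for CSTA, 1.99 for LTB4R, 1.92 for CEBPB and 1.81 for SULT1B1. It was 1.71 for CCL4, 1.54 for SRGN, 1.24 for MGAT5B, 1.15 for CSF1R, 1.06 for IRF8, 0.86 for MERTK and 0.72 for ABCA1. For genes changed in muscle alone it was -1.59 for ASB2, -1.27 for KCTD20, -1.25 for VAMP1, -1.14 for MYOM1, 3.41 for TTR, 2.16 for MDK and 2.16 for PLTP.

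A library was taken to stand apart by a rule that gives about 1 in 20 by chance for independent, normally spread values. The values here were scaled FPKM of genes chosen for their changes, from the same libraries, so that rate need not hold. In 19 of 196 groups of 5 libraries, over 49 named genes, 1 library stood apart from the other 4. The share of the group's range that separated it from its nearest neighbour was 0.894 for CSTA, 0.796 for LTB4R, 0.898 for MDK, 0.741 for MERTK and 0.797 for TTR in breast deficient 5, in each case nearest to the control breasts. These genes all fell in muscle. That share was 0.734 for KCTD20 in breast deficient 3, 0.736 for SESN1 in breast control 5 and 1 for SNORA25 in breast deficient 1. In liver control 1 it was 0.901 for TPM1, 0.737 for MYOM1 and 0.85 for LTB4R, and this library also holds the muscle markers given in the report. The other liver values were 0.852 for G0S2 in control 3, 0.718 for CHAC1 and 1 for SNORA40 in control 2, 0.788 for GHR in control 5, 0.764 for MDK in deficient 1, 0.799 for SNORA25 in deficient 3, and 0.822 for CHAC1 and 0.764 for GHR in deficient 5. The causes were not tested.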

How the results depend on the processing

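Counts are given as called, above 0, below 0, opposed and muscle alone, in that order. They were 843, 479, 364, 164 and 618 in the report, 1871, 1799, 72, 349 and 1319 without scaling (103 opposed genes shared), 189, 139, 50, 44 and 136 at a threshold of 0.01, and 358, 245, 113, 103 and 244 without liver control 1, liver control 4 and liver deficient 1 together (69 opposed genes shared). At a threshold of 0.1 they were 1408, 723, 685, 216 and 1051. With a mean of at least 5 in both tissues 555 were called, 255 of them above 0, and 92 were opposed (86 shared). Opposed genes were 633 with no size minimum and 29 with 0.5. Leaving out 1 library at a time gave ranges of 456 to 1133, 290 to 592, 166 to 541, 108 to 213 and 322 to 861, and 0 to 1 genes called in both tissues. Without breast control 2, breast control 4, breast deficient 3, breast deficient 4 and liver control 2 in turn, 166, 207, 215, 200 and 237 lay below 0, and without breast control 2 and breast deficient 4, 290 and 318 above 0.

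With a fixed replicate block 787 were called, 172 opposed (146 shared) and 539 in muscle alone, and ULK1 (adjusted p = 0.0881) and IRS4 (0.0532) ended. With a random one 1079 were called and 189 opposed. By correlation 7 breast and 8 liver libraries were nearest to their own number, and same-numbered pairs lay between 0.00966 and 0.211.

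No named opposed gene reversed. Besides the fragile calls of the report (ULK1, IRS4, ABCA1, PKIA, MGAT5B, TPM1, VAMP1 and both small nucleolar RNAs), GHR ended without scaling (0.0661), PKM with quantile normalization (0.05004), MYOM1 with a pseudocount of 0.1 (0.0562), and G0S2, CSTA, FST, KCTD20, MYOM1, MDK, PKM, TRIB1, IRF8 and GHR without the 3 liver libraries (adjusted p between 0.0519 and 0.126). Reversed differences, none called, were 0.21 and 0.067 for AHCY and 0.23 and 0.081 for BHMT (no scaling, quantile normalization), 0.045 for CDO1 and 0.046 for MAT1A (no scaling), and for GNMT -0.015 (joint scaling), -0.12 (library weights) and -0.12 (without the 3 liver libraries). Without 1 library GNMT ran from -0.20 to 0.16, BHMT from -0.46 to 0.23 and MAT1A from -0.57 to 0.036. MTR was called without scaling (0.0340). The causes were not tested. Read depth is unknown, so the precision of low genes cannot be given.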

Other observations

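Without liver control 3, 11 genes were called in liver (limma adjusted p under 0.05), whereas 0 were called with all 10 liver libraries. They include DNAJA4, the transcription factor gene CREM, MIB2, ZBTB16, HSP70, NFIL3 and ZFAND5, of which ZFAND5 was opposed (0.42 in breast, -0.999 in liver with all libraries). Opposed genes on no list with large changes in both tissues included PDE4B, a cyclic AMP phosphodiesterase, with 0.58 in breast and -1.06 in liver (adjusted p of the difference = 0.00298). FXR1, an RNA-binding protein of muscle, had 0.61 and -0.43 (adjusted p = 0.00120). These genes were chosen after their values were seen.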
